A study of Mus musculus with 12 samples.

Results

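Genes of protein folding and stress sensing in the endoplasmic reticulum (ER) were read from bulk RNA libraries of mouse CD8+ T cells, the lymphocytes that kill infected and malignant cells. The set holds 37 genes named by symbol, all 37 of which matched an Ensembl mouse identifier in the count table. They stand against 55487 identifiers in the whole series, of which 32285 were counted in some library and 15897 were kept for testing by a filter on low counts. All 37 genes were kept by it.

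The cells came from C57BL/6 mouse splenocytes and were kept with IL-12 and 80%TCM, with IL-12, with IL-2 and 80%TCM, or with IL-2, the last of which the sample titles mark as the control. IL-2 drives the growth of T cells, while IL-12, made by dendritic cells and macrophages, signals to them through STAT4. The labels do not spell out TCM, and the series title mentions tumor-like conditions. Each of the 4 groups had 3 libraries, and the labels name no separate animal or culture behind a library, so that p-values measure the spread between these libraries, which may be technical.

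The ER is where secreted and membrane proteins are folded, so lymphocytes that make cytokines, cytotoxic granule proteins and receptors depend on its capacity. Proteins enter through the Sec61 channel, are folded by the chaperone BiP (Hspa5), by the lectin chaperones calnexin and calreticulin and by disulfide isomerases, and are sent back to the cytosol for degradation when folding fails. When unfolded proteins accumulate, the unfolded protein response (UPR) is started by IRE1 (Ern1), which splices Xbp1 mRNA, by ATF6, which is cleaved into a transcription factor, and by PERK (Eif2ak3), which phosphorylates eIF2alpha and slows translation. Gene counts report the amount of each mRNA. They do not report Xbp1 splicing, ATF6 cleavage or eIF2alpha phosphorylation.

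Library depth, in units of 1e+06 counts, was 19.5 to 26, except in replicates 1 and 2 of IL-12, which reached 49.6 and 42.3 and carry less counting error. All 8 genes of a CD8 T cell list were tested, with sums of 3790 to 4580 counts per 1e+06 counts (CPM). The extraction text of the labels speaks of mouse livers, but 2 of 4 hepatocyte genes were at 0 in every library and the 4 together reached at most 0.132 CPM. Replicate 3 of IL-2 80%TCM and replicate 3 of IL-2 stood apart from their groups: the summed level of 10 glycolysis and hypoxia genes was 14900 CPM in the first of these against 4550 and 4660 CPM in replicates 1 and 2 of its group, and 13800 CPM in the IL-2 library against 4390 and 4520 CPM. In both of these libraries 9 of the 37 genes lay above, and 14 below, the other replicates of their group. That was not counted over all genes. The median absolute log2 distance of replicate 3 from the mean of replicates 1 and 2 was 0.12 over the 37 in IL-2 80%TCM, against 0.18 over all tested genes. In IL-2 it was 0.15 against 0.16, so the 37 did not move more than other genes. Replicate 3 also lay below the others for 21 of the 37 in each IL-12 group. The counts of calls, and the members whose value moved most, are given with and without replicate 3 of IL-2 80%TCM and of IL-2. In bulk libraries, fewer cells of a type and less RNA per cell cannot be told apart.

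Together the 37 genes held 6095, 5886 and 5834 CPM in IL-12 80%TCM and 6788, 6499 and 6397 CPM in IL-12, against 4859, 4859 and 5041 CPM in IL-2 80%TCM and 5233, 5246 and 5211 CPM in IL-2. The 4 groups did not overlap, and the summed level was lower with TCM within each cytokine and higher with IL-12 than with IL-2. Of the 37 genes, 19 had their highest group mean in IL-12, 11 in IL-12 80%TCM, 5 in IL-2 and 2 in IL-2 80%TCM. Per kilobase of exon, the most abundant transcripts were Pdia3, Calr, P4hb, Canx, Hspa5 and Hsp90b1, with means of 245, 236, 134, 113, 110 and 97.5 CPM per kb in IL-12, and Wfs1 and Derl3 were the least abundant in that group at 0.359 and 0.662 CPM per kb.

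**Figure D1:**
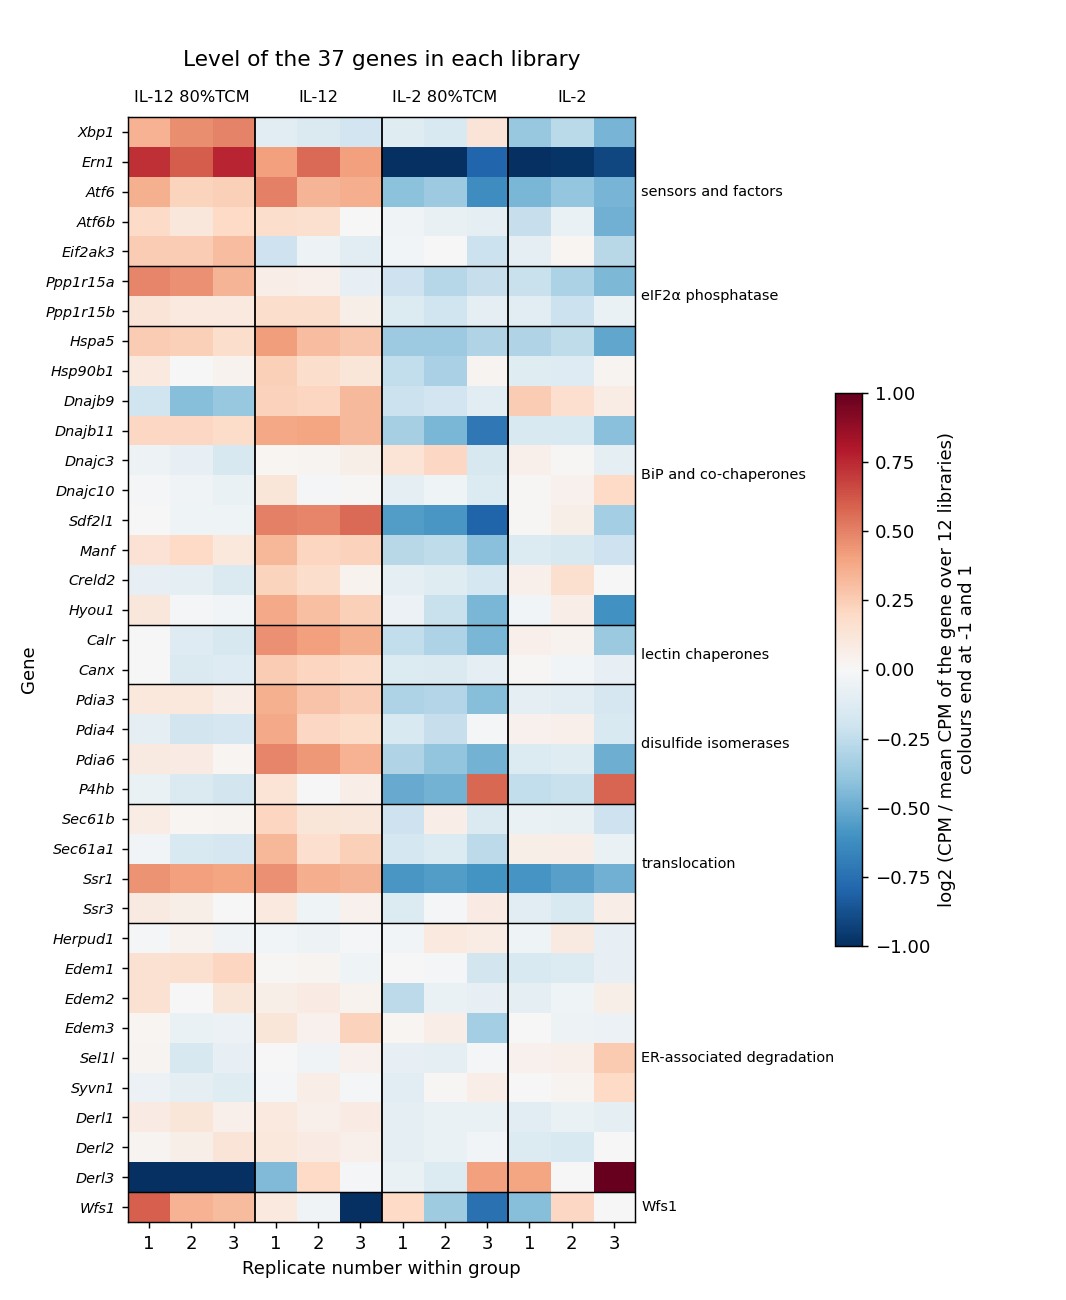
Level of the 37 genes (rows, by role) in each of 12 libraries (columns, by group and replicate), as log2 of CPM over the gene's mean CPM of all libraries, with colours ending at -1 and 1. Ern1, Atf6, Hspa5 and Ssr1 are higher in the 6 IL-12 libraries than in the 6 IL-2 libraries, and P4hb stands out in replicate 3 of IL-2 80%TCM and of IL-2, at 545 and 546 CPM.

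IL-12 was compared with IL-2, first without TCM and then with TCM in both groups. The labels name no culture or run behind a library, so a culture or run difference cannot be told apart from the cytokine. Without TCM, 22 of 37 genes were higher with IL-12, and 0 were lower, among them the stress sensor Ern1 (2.79-fold), the translocon-associated subunit Ssr1 (1.9-fold), the sensor Atf6 (1.79-fold), BiP (Hspa5, 1.61-fold), the isomerase Pdia6 (1.58-fold) and calreticulin (Calr, 1.41-fold). Across all genes tested, 45.1% were called in this comparison, 22.1% as higher and 23% as lower, against 59.5% of the 37, all of them higher. The median log2 fold change was 0.23 over the 37 genes and -0.01 over all genes. With TCM in both groups, 18 of the 37 were higher in IL-12 80%TCM than in IL-2 80%TCM and 1 was lower, which is 51.4% of them, against 39% of all genes called, 19.5% higher and 19.4% lower. The median was again 0.23, against -0.01 over all genes. These 2 comparisons share no library, and 15 genes were called in the same direction in both, which is 15 of 22 and 15 of 19. The same overlap was not counted over all genes, so it cannot be read as particular to the 37. Without replicate 3 of IL-2 80%TCM and of IL-2, 22 genes were higher and 2 lower with TCM, against 48% of all genes, and 26 were higher and 0 lower without it, against 52.3% of all genes. With only genes of a mean of at least 5 CPM kept, 16 members were higher and 0 lower with TCM, against 46.1% of all genes called. Without TCM 21 were higher and 0 lower, against 51.9%. Both shares of all genes are above the 39% and 45.1% of the main fit.

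Calls used edgeR's quasi-likelihood test on counts with Benjamini-Hochberg adjustment over the 15897 genes at 0.05, and each adjusted p below is of that kind. The ± of a log2 fold change is its standard error. Under upper-quartile scaling, IL-12 over IL-2 without TCM gave 17 higher and 2 lower genes, the lower ones being Sel1l at -0.2 and Derl3 at -0.77.

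Among the stress sensors, Ern1, which encodes the kinase and endoribonuclease IRE1, showed the highest fold change of the set. It had 52.8, 48.4 and 54 CPM in IL-12 80%TCM and 42.3, 47.2 and 42.4 CPM in IL-12, against 14.7, 15.1 and 18.4 CPM in IL-2 80%TCM and 14.1, 16.2 and 17 CPM in IL-2. Every IL-12 library lay above every IL-2 library, with or without TCM. IL-12 over IL-2 gave a log2 fold change of 1.68 ± 0.096 with TCM (adjusted p = 1.4e-08) and 1.48 ± 0.095 without it (adjusted p = 5.8e-08). Atf6, the membrane-bound precursor of a transcription factor, had 71.4, 65.1 and 65.7 CPM in IL-12 80%TCM and 79.4, 70.8 and 72 CPM in IL-12, against 42, 43.4 and 36.4 CPM in IL-2 80%TCM and 40.7, 42.8 and 40.4 CPM in IL-2. The IL-12 and IL-2 libraries again did not overlap, and the log2 fold changes were 0.73 ± 0.073 with TCM and 0.84 ± 0.072 without it (adjusted p = 3.7e-06 and 9.5e-07). Its relative Atf6b differed less, with 54.2, 51.5 and 54.5 CPM in IL-12 80%TCM and 53.9, 53.1 and 47.6 CPM in IL-12, against 46.5, 45.1 and 44.5 CPM in IL-2 80%TCM and 40.5, 45.5 and 34.2 CPM in IL-2. The groups of each pair did not overlap. Its log2 fold change was 0.36 ± 0.086 without TCM (adjusted p = 0.0038) and 0.23 ± 0.086 with TCM (adjusted p = 0.045), and the call with TCM was lost when any of 10 libraries was left out, at adjusted p = 0.063 to 0.15.

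Xbp1, the transcription factor whose mRNA IRE1 splices, had 122, 132 and 135 CPM in IL-12 80%TCM and 88.8, 86.7 and 83.9 CPM in IL-12, against 88.3, 86.1 and 105 CPM in IL-2 80%TCM and 73.9, 79.4 and 69.5 CPM in IL-2. The IL-12 80%TCM libraries were the highest of all 12 and the IL-2 libraries the lowest, with the other 6 between them. IL-12 over IL-2 gave 0.48 ± 0.077 with TCM (adjusted p = 0.00027) and 0.22 ± 0.077 without it (adjusted p = 0.033), and the call without TCM was lost when any of 5 libraries was left out (adjusted p = 0.051 to 0.11). Eif2ak3, which encodes PERK, had 103, 103 and 107 CPM in IL-12 80%TCM and 75.1, 83.6 and 80.3 CPM in IL-12, against 84.8, 86.7 and 74.4 CPM in IL-2 80%TCM and 81.4, 87.9 and 71.4 CPM in IL-2. Only the IL-12 80%TCM libraries lay apart from the rest. IL-12 over IL-2 was called with TCM (0.35 ± 0.079, adjusted p = 0.0035) and not without it (-0.01 ± 0.078, adjusted p = 0.92).

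Both regulatory subunits that bring phosphatase 1 to eIF2alpha and so reverse PERK's mark were higher with IL-12. Ppp1r15a (GADD34), the inducible subunit, had 35.7, 35 and 32.2 CPM in IL-12 80%TCM and 26.6, 26.4 and 24.1 CPM in IL-12, against 22, 20.9 and 21.7 CPM in IL-2 80%TCM and 21.8, 20.5 and 18.6 CPM in IL-2. The IL-12 80%TCM libraries were the highest, the IL-12 libraries came next, and the IL-2 and IL-2 80%TCM libraries overlapped. IL-12 over IL-2 gave 0.67 ± 0.075 with TCM and 0.34 ± 0.075 without it (adjusted p = 1.1e-05 and 0.0023). Ppp1r15b (CReP), the constitutive subunit, had 181, 177 and 177 CPM in IL-12 80%TCM and 187, 187 and 172 CPM in IL-12, against 151, 144 and 156 CPM in IL-2 80%TCM and 154, 143 and 158 CPM in IL-2. It differed by cytokine alone, with log2 fold changes of 0.25 ± 0.055 and 0.27 ± 0.055 with and without TCM (adjusted p = 0.0026 and 0.0015).

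**Figure D2:**
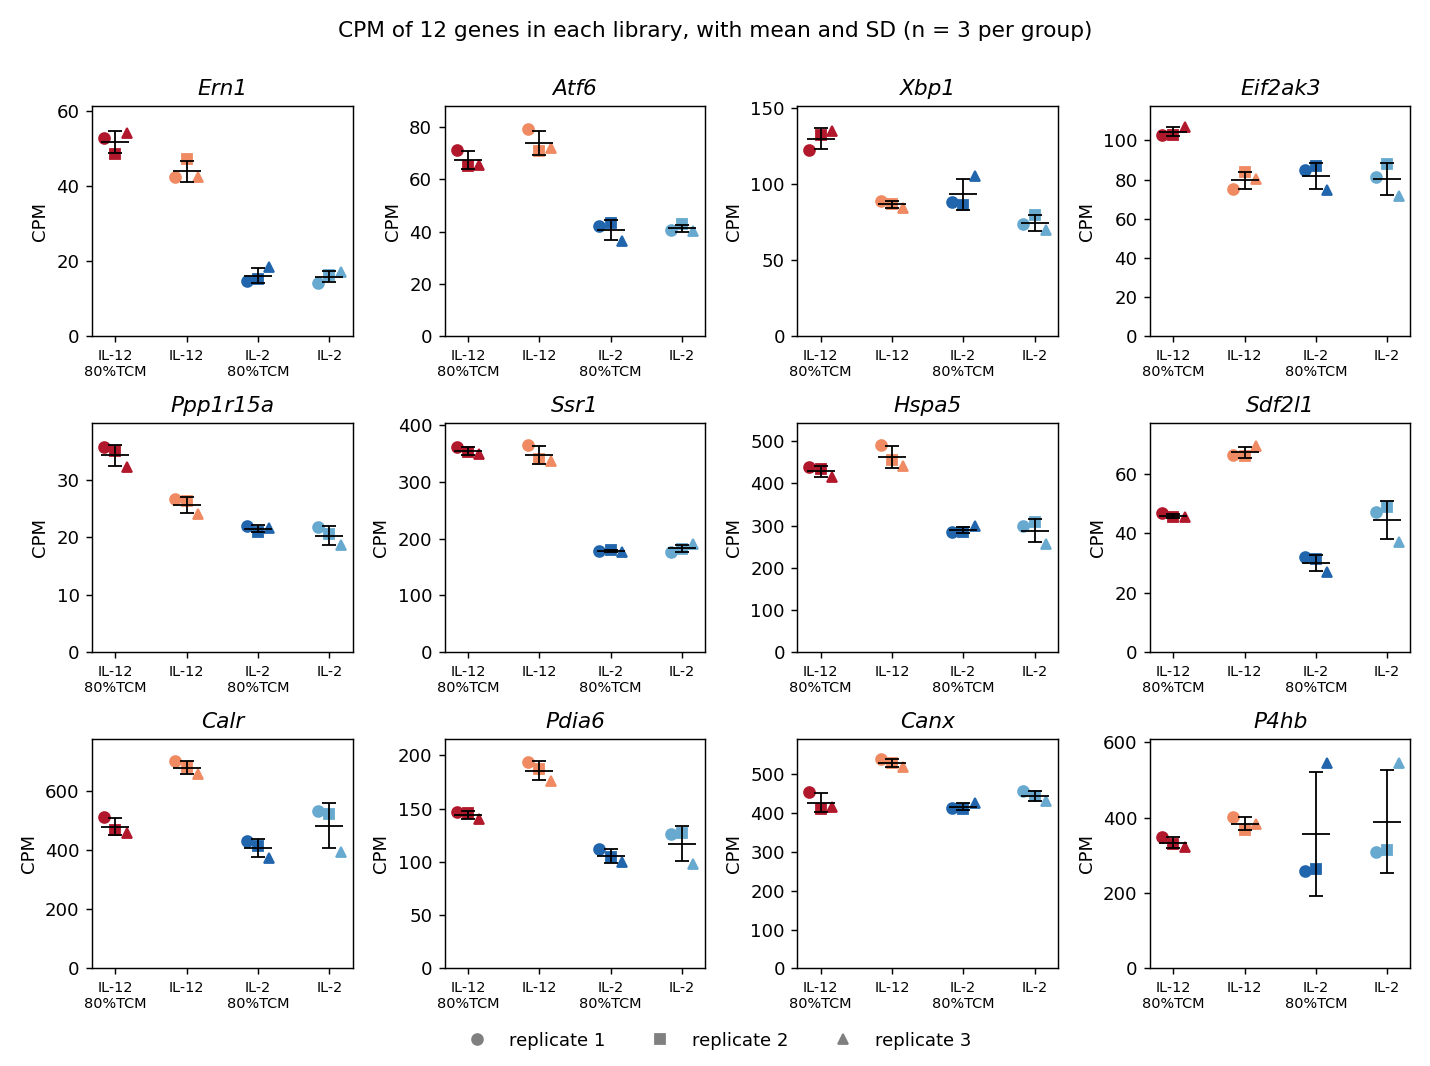
CPM of 12 genes in each library (points, by replicate), with group mean and SD (black, n = 3 libraries per group). Ern1 reads 48.4 to 54 CPM in IL-12 80%TCM and 42.3 to 47.2 CPM in IL-12, against 14.7 to 18.4 CPM in IL-2 80%TCM and 14.1 to 17 CPM in IL-2, while Eif2ak3 is set apart in IL-12 80%TCM, at 103 to 107 CPM.

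The promoters of several folding genes carry the ER stress response element (ERSE), a bipartite motif made of CCAAT, a spacer of 9 bases and CCACG, which the factor NF-Y together with ATF6 or XBP1 is known to bind. Promoters of 31 of the 37 genes were found in the RefSeq table of mouse build GRCm38.p6, as 32 windows of 250 bases before to 50 bases after the start, and both strands were searched. ERSE was present in 9 of the 32 windows (28.1%) and in 39 of 32851 windows of all genes in that table (0.119%). Those 9 belong to Hspa5, Hsp90b1, Calr, Canx, Pdia6, Dnajc3, Creld2, Syvn1 and Derl3, with 2 matches in Hsp90b1. ERSE-II (ATTGG, any base, CCACG) was present in Herpud1 and Dnajb11, 6.25% of the windows against 0.0365% of all, and the UPR element core, TGAC directly followed by GTGG, in 0 of 32 against 0.676% of all. The ending CCACG is common to ERSE and ERSE-II, and read on the other strand it overlaps the UPR element core. A match is a description of the letters and not evidence of binding. Because folding genes are known carriers of ERSE, its higher share in this set was given beforehand and is not a test. The 4 windows printed are those of BiP and of 3 folding genes that were lower with TCM in IL-12, written 5′ to 3′ along the gene, with the CCAAT and CCACG parts of ERSE in capitals, or their reverse complement in Calr.
Hspa5, chr2:34771840-34772139, plus strand: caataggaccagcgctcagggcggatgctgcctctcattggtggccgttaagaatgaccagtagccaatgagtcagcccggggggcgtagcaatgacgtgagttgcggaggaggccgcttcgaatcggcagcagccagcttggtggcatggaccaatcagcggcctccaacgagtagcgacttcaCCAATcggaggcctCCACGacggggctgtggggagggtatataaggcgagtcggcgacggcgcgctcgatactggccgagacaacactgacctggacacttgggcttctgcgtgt
Calr, chr8:84846882-84847181, minus strand: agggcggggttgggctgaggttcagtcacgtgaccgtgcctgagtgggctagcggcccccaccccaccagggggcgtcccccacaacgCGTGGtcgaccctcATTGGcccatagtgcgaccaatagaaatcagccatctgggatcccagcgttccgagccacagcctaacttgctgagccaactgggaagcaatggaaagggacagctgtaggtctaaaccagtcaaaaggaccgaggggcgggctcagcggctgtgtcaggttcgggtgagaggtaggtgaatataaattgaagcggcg
Canx, chr11:50325624-50325923, minus strand: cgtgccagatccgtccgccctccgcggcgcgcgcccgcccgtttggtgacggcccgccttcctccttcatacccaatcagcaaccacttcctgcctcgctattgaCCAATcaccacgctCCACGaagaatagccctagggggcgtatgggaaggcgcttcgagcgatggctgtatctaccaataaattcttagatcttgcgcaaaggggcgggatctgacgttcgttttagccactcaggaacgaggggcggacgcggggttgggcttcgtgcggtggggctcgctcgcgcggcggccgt
Pdia6, chr12:17266339-17266638, plus strand: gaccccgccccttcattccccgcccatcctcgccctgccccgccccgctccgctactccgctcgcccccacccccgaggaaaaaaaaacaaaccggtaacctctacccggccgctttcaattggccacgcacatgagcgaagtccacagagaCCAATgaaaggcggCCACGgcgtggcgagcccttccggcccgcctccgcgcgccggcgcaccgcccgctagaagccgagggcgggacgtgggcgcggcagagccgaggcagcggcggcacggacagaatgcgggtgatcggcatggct
The element began 65 bases before the start in Hspa5, 162 in Calr, 145 in Canx and 98 in Pdia6.

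The chaperones and co-chaperones of BiP included 6 of 10 genes higher with IL-12 without TCM, against 22.1% of all genes, and 5 of 10 with TCM, against 19.5%. Hspa5 itself had 439, 434 and 414 CPM in IL-12 80%TCM and 492, 456 and 442 CPM in IL-12, against 285, 285 and 299 CPM in IL-2 80%TCM and 298, 308 and 257 CPM in IL-2. All 6 IL-12 libraries lay above all 6 IL-2 libraries. The log2 fold change was 0.57 ± 0.066 with TCM (adjusted p = 1.7e-05) and 0.69 ± 0.066 without it (adjusted p = 2.9e-06). Hsp90b1 (GRP94), the ER member of the HSP90 family, had 371, 347 and 355 CPM in IL-12 80%TCM and 409, 391 and 378 CPM in IL-12, against 293, 277 and 354 CPM in IL-2 80%TCM and 319, 318 and 353 CPM in IL-2. Replicate 3 of each IL-2 group was the highest of its group, and the TCM libraries overlapped between cytokines. The calls were narrow, at 0.22 ± 0.08 with TCM (adjusted p = 0.048) and 0.25 ± 0.08 without it (adjusted p = 0.021). Leaving out 1 of 10 libraries ended the call with TCM (adjusted p = 0.052 to 0.2), and leaving out IL-12 replicate 1 or IL-2 replicate 2 ended the call without it (adjusted p = 0.054 and 0.062).

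Dnajb11 (ERdj3), a J-domain partner of BiP, had 151, 151 and 149 CPM in IL-12 80%TCM and 171, 172 and 164 CPM in IL-12, against 104, 95.5 and 79.6 CPM in IL-2 80%TCM and 118, 118 and 98.2 CPM in IL-2. Its IL-12 and IL-2 libraries did not overlap, with log2 fold changes of 0.69 ± 0.09 with TCM and 0.6 ± 0.089 without it (adjusted p = 4.7e-05 and 0.00014). Sdf2l1, an ER protein that works with that partner, had 46.8, 45.5 and 45.5 CPM in IL-12 80%TCM and 66.4, 66 and 69.5 CPM in IL-12, against 31.9, 31.3 and 27 CPM in IL-2 80%TCM and 47.2, 49 and 37.1 CPM in IL-2. The IL-12 libraries were the highest and the IL-2 80%TCM libraries the lowest. IL-12 over IL-2 gave 0.61 ± 0.094 with TCM and 0.6 ± 0.091 without it (adjusted p = 0.00018 and 0.00016). Manf, a BiP-binding protein that is retained in the ER and secreted under stress, had 76.3, 79.3 and 74.1 CPM in IL-12 80%TCM and 86.9, 80.1 and 80.8 CPM in IL-12, against 57.1, 57.8 and 51.6 CPM in IL-2 80%TCM and 62.7, 61.9 and 59.9 CPM in IL-2. Each cytokine pair was separate, at 0.46 ± 0.058 with TCM and 0.43 ± 0.058 without it (adjusted p = 3.3e-05 and 6.4e-05). The exons of Manf share bases with Dcaf1 on the other strand and with Rbm15b, and the sources used here do not say whether counting used strand, so its level is uncertain.

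Hyou1 (GRP170), the nucleotide exchange factor of BiP, had 124, 113 and 112 CPM in IL-12 80%TCM and 149, 141 and 135 CPM in IL-12, against 110, 98.2 and 83.4 CPM in IL-2 80%TCM and 112, 120 and 75.4 CPM in IL-2. Replicate 3 was the lowest library of both IL-2 groups. The call was made without TCM (0.47 ± 0.139, adjusted p = 0.015), ended without IL-12 replicate 1 (adjusted p = 0.062), and was not made with TCM (0.26 ± 0.14, adjusted p = 0.16). Without replicate 3 of each IL-2 group the values were 0.15 with TCM (adjusted p = 0.036) and 0.28 without it (adjusted p = 0.0001). Dnajb9 (ERdj4), a co-chaperone that holds IRE1 inactive, had 10.5, 8.99 and 9.29 CPM in IL-12 80%TCM and 14.2, 14 and 15.1 CPM in IL-12, against 10.4, 10.6 and 11.2 CPM in IL-2 80%TCM and 14.4, 13.6 and 12.7 CPM in IL-2. Creld2, an ER protein with isomerase activity, had 26.2, 25.9 and 25 CPM in IL-12 80%TCM and 32.3, 31.3 and 28.3 CPM in IL-12, against 26, 25.4 and 24.5 CPM in IL-2 80%TCM and 28.6, 31 and 27.7 CPM in IL-2. For Dnajb9 and Creld2 the libraries sorted by TCM and not by cytokine, and neither was called between cytokines (log2 fold changes of -0.16 and 0.02 with TCM, and 0.09 and 0.08 without it).

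Calreticulin (Calr) had 514, 469 and 458 CPM in IL-12 80%TCM and 703, 681 and 657 CPM in IL-12, against 433, 413 and 373 CPM in IL-2 80%TCM and 532, 524 and 396 CPM in IL-2. Calnexin (Canx), its membrane-bound counterpart, had 453, 409 and 414 CPM in IL-12 80%TCM and 539, 527 and 518 CPM in IL-12, against 411, 410 and 425 CPM in IL-2 80%TCM and 456, 444 and 429 CPM in IL-2. For both lectin chaperones the IL-12 libraries without TCM were the highest of all 12. IL-12 over IL-2 was called without TCM for Calr (0.49 ± 0.097, adjusted p = 0.0012) and Canx (0.25 ± 0.05, adjusted p = 0.0012), and with TCM for neither (0.24 ± 0.097, adjusted p = 0.065, and 0.03 ± 0.05, adjusted p = 0.63). A pseudogene named Calr-ps exists in the annotation, and the sources used here do not say how reads shared with it were counted.

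Among the disulfide isomerases, Pdia3 (ERp57), the partner of calnexin and calreticulin, had 673, 672 and 656 CPM in IL-12 80%TCM and 802, 762 and 740 CPM in IL-12, against 504, 509 and 465 CPM in IL-2 80%TCM and 586, 577 and 557 CPM in IL-2. The 4 groups were ordered with no overlap between any of them. IL-12 over IL-2 gave 0.44 ± 0.051 with TCM and 0.42 ± 0.051 without it (adjusted p = 1.5e-05 and 2.2e-05). Pdia6, an isomerase that binds BiP clients and IRE1, had 147, 146 and 140 CPM in IL-12 80%TCM and 194, 187 and 176 CPM in IL-12, against 112, 105 and 99.6 CPM in IL-2 80%TCM and 126, 127 and 98.5 CPM in IL-2. Its IL-12 libraries lay above its IL-2 libraries in both pairs, at 0.45 ± 0.086 with TCM and 0.66 ± 0.085 without it (adjusted p = 0.00093 and 3.9e-05). Pdia4 (ERp72) had 80.8, 75.8 and 76.8 CPM in IL-12 80%TCM and 112, 99.6 and 98.1 CPM in IL-12, against 77.8, 73.6 and 85 CPM in IL-2 80%TCM and 88.9, 89.4 and 77.7 CPM in IL-2. It was called without TCM (0.28 ± 0.074, adjusted p = 0.0083, and 0.053 without IL-12 replicate 1) and not with TCM (-0.02 ± 0.075, adjusted p = 0.87).

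P4hb (PDI), the archetypal isomerase and a subunit of prolyl 4-hydroxylase, was decided by 2 libraries. It had 349, 330 and 322 CPM in IL-12 80%TCM and 402, 367 and 383 CPM in IL-12, against 258, 263 and 545 CPM in IL-2 80%TCM and 309, 314 and 546 CPM in IL-2. Replicate 3 of each IL-2 group was the highest of all 12 libraries and the other 4 IL-2 libraries were the lowest. Over all libraries the log2 fold change of IL-12 over IL-2 was -0.09 ± 0.258 with TCM and -0.02 ± 0.257 without it (adjusted p = 0.81 and 0.95). Without both of those libraries it was 0.34 with TCM and 0.29 without it (adjusted p = 8.7e-07 and 6.1e-06). The same 2 libraries held the high glycolysis and hypoxia sums, and the part of that in the P4hb level was not tested.

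In translocation into the ER, Ssr1, a subunit of the translocon-associated protein complex, had 362, 353 and 349 CPM in IL-12 80%TCM and 365, 341 and 336 CPM in IL-12, against 178, 180 and 176 CPM in IL-2 80%TCM and 177, 182 and 190 CPM in IL-2. The lowest IL-12 library stood at 336 CPM and the highest IL-2 library at 190 CPM. The log2 fold change was 0.99 ± 0.048 with TCM and 0.93 ± 0.048 without it (adjusted p = 2.7e-09 and 7e-09). Ssr3, a subunit of the same complex, showed no such separation, with 269 to 285 CPM in IL-12 80%TCM and 260 to 287 CPM in IL-12, against 244 to 284 CPM in IL-2 80%TCM and 241 to 281 CPM in IL-2. It was not called in either cytokine comparison (0.07 ± 0.069 and 0.1 ± 0.069 with and without TCM).

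The channel subunits differed less than Ssr1. Sec61a1, the pore-forming subunit, had 163, 150 and 148 CPM in IL-12 80%TCM and 210, 187 and 196 CPM in IL-12, against 147, 151 and 139 CPM in IL-2 80%TCM and 173, 174 and 159 CPM in IL-2. Sec61b, the small beta subunit, had 88, 84.7 and 85 CPM in IL-12 80%TCM and 96.7, 90.8 and 90.5 CPM in IL-12, against 72.3, 87.5 and 75.4 CPM in IL-2 80%TCM and 79.6, 79.2 and 72.2 CPM in IL-2. Without TCM the IL-12 libraries lay above the IL-2 libraries for both genes, and with TCM they overlapped. IL-12 over IL-2 without TCM was 0.23 ± 0.061 for Sec61a1 (adjusted p = 0.0078, and 0.053 without IL-12 replicate 1) and 0.27 ± 0.07 for Sec61b (adjusted p = 0.0071).

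Among 9 genes of ER-associated degradation, 2 were higher with IL-12 without TCM, a share like the 22.1% of all genes, and 3 were higher and 1 lower with TCM, against 19.5% and 19.4% of all genes. Derl1, a rhomboid-like protein of the retrotranslocation channel, had 119, 122 and 116 CPM in IL-12 80%TCM and 120, 116 and 119 CPM in IL-12, against 105, 107 and 107 CPM in IL-2 80%TCM and 104, 107 and 105 CPM in IL-2. Its groups sorted by cytokine without overlap, at 0.17 ± 0.043 in both comparisons (adjusted p = 0.0083 with TCM, or 0.06 without IL-12 80%TCM replicate 2, and 0.0069 without TCM). Its relative Derl2 had 57, 58.2 and 61.1 CPM in IL-12 80%TCM and 60.2, 59.4 and 57.9 CPM in IL-12, against 52.3, 53.4 and 54.9 CPM in IL-2 80%TCM and 50.9, 50.4 and 56.2 CPM in IL-2. Derl2 was called without TCM (0.17 ± 0.055, adjusted p = 0.021, and 0.056 without IL-2 replicate 2) and not with it (0.13 ± 0.056, adjusted p = 0.074). Its exons share 231 bases with Mis12 on the other strand, a gene with 83.2% as many counts, so its level is uncertain too. The other overlaps of exons, in Dnajb9, Eif2ak3, Hsp90b1, Pdia3, Pdia4, Pdia6, Ppp1r15a, Ppp1r15b and Sec61a1, were with genes whose counts were at most 1.45% of the member's.

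Edem1 and Edem2, which help trim mannose from misfolded glycoproteins, were higher in IL-12 80%TCM than in IL-2 80%TCM. Edem1 had 386, 388 and 403 CPM in IL-12 80%TCM and 350, 355 and 337 CPM in IL-12, against 349, 345 and 306 CPM in IL-2 80%TCM and 314, 316 and 328 CPM in IL-2. Edem2 had 58.1, 52.3 and 56.8 CPM in IL-12 80%TCM and 54.5, 55.2 and 53.4 CPM in IL-12, against 43.5, 49.9 and 49.4 CPM in IL-2 80%TCM and 48.8, 50.8 and 54.3 CPM in IL-2. With TCM the 2 cytokine groups did not overlap for either gene, at 0.24 ± 0.054 for Edem1 (adjusted p = 0.0038) and 0.23 ± 0.067 for Edem2 (adjusted p = 0.016, and 0.059 to 0.075 without 1 of 3 libraries). Derl3, at 0.471 to 3.2 CPM over all libraries and as few as 9 reads, was lower in IL-12 80%TCM than in IL-2 80%TCM, at a mean of 0.588 ± 0.102 CPM against 1.47 ± 0.32 CPM (SD, n = 3 each, log2 fold change -1.31 ± 0.364, adjusted p = 0.012).

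**Figure D3:**
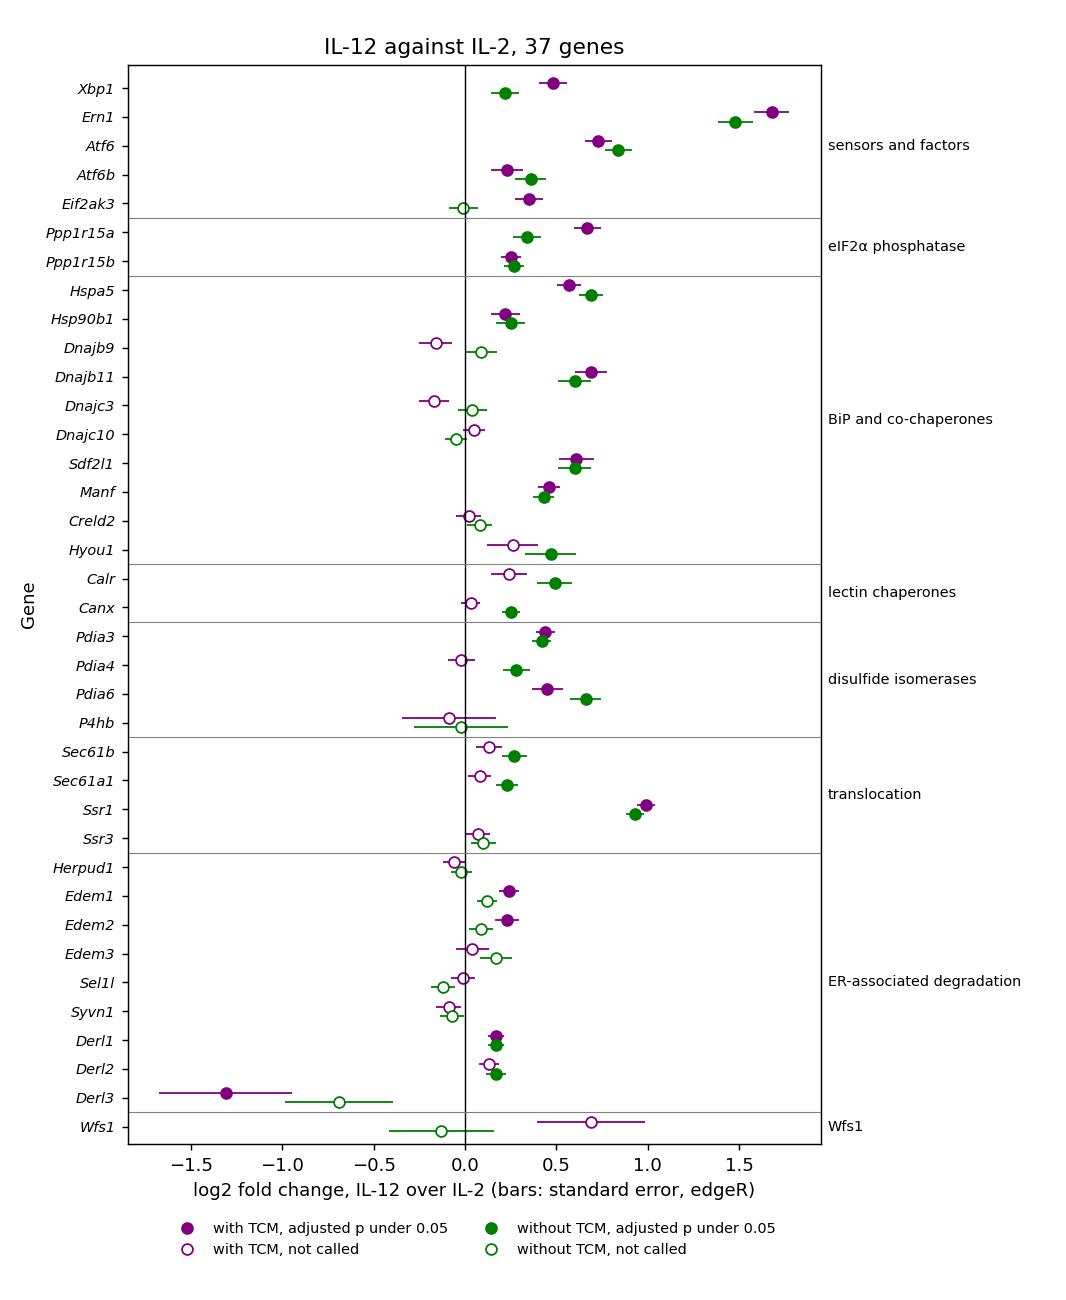
Log2 fold change of IL-12 over IL-2 for the 37 genes (rows, by role), with TCM in both groups (purple) and without TCM (green). Bars are standard errors of edgeR, and filled points passed an adjusted p of 0.05. Ern1 lies farthest right at 1.68 and 1.48, followed by Ssr1 at 0.99 and 0.93, and Derl3 lies farthest left.

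80%TCM was compared with no TCM within each cytokine. In IL-12 cells, 10 of the 37 genes fell with TCM and 4 rose. By role, 3 of 10 chaperones and co-chaperones of BiP fell, 2 of 2 lectin chaperones, 3 of 4 isomerases and 1 of 4 translocation genes. In these roles 0 rose, and 14.2% of all genes fell. Those that fell included Dnajb9 (1.5-fold lower), Sdf2l1 (1.46-fold), Calr (1.42-fold), Pdia4 (1.33-fold) and Pdia6 (1.29-fold). Of 5 sensors and transcription factors, Xbp1 (1.5-fold) and Eif2ak3 (1.31-fold) rose and 0 fell. Of 2 phosphatase subunits, Ppp1r15a (1.33-fold) rose. The roles are small and were set with earlier results of these data known. In IL-2 cells, 4 genes fell with TCM, namely Sdf2l1, Dnajb9, Pdia3 and Sec61a1, and Xbp1 rose.

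These were 14 of 37 genes (37.8%) in IL-12, against 29% of all genes called, 14.8% higher and 14.2% lower. In IL-2 they were 5 of 37 (13.5%), against 14.5% of all genes, 6.73% higher and 7.82% lower, a share near that of all genes. With only genes of a mean of at least 5 CPM kept, 38.1% of all genes were called in IL-12 and 19.8% in IL-2. The members called were then 13 and 5. The 37.8% of the 37 in IL-12 was thus near the share of genes at that level. The median log2 fold change over the 37 was -0.11 in IL-12 and -0.09 in IL-2, against 0.01 and 0 over all genes. The 2 comparisons share no library. All 5 genes called in IL-2 were called in the same direction in IL-12, which is 5 of 5 and 5 of 14. This overlap too was not counted over all genes. In IL-2, fitting only the 2 groups compared gave 0, against 3.81% of all genes. Leaving out 1 library gave 2 to 9 calls, against 7.95% to 18.1% of all genes. Of the 5 calls in IL-2, 0 held under every alternative run.

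Replicate 3 of IL-2 80%TCM and replicate 3 of IL-2 deviated together, while replicates 1 and 2 of these groups correlated as much across numbers as within them. A fit that blocked on replicate number in these groups called 14 of 37 genes for TCM within IL-2, 2 as higher and 12 as lower, against 27.9% of all genes. Leaving out replicate 3 of both groups also gave 14, 3 higher and 11 lower, against 24.7% of all genes. The genes gained with the block in IL-2 were Calr, Pdia6, P4hb, Dnajb11, Dnajc10, Manf, Creld2 and Sel1l as lower, at -0.26 to -0.15, and Atf6b as higher, at 0.18. In IL-12 the same fit called 20, 5 higher and 15 lower, against 42% of all genes. It added Ern1 as higher at 0.23 (adjusted p = 0.0049), and Hsp90b1, P4hb, Dnajb11, Dnajc3 and Hyou1 as lower, at -0.29 to -0.13.

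Xbp1 had the highest log2 fold change with TCM among called genes in both cytokines, at 0.58 ± 0.077 in IL-12 (adjusted p = 0.00017) and 0.33 ± 0.077 in IL-2 (adjusted p = 0.014). Its mean was 129 ± 6.85 CPM in IL-12 80%TCM against 86.5 ± 2.47 CPM in IL-12, and 93.1 ± 10.3 CPM in IL-2 80%TCM against 74.3 ± 4.95 CPM in IL-2 (SD, n = 3 each). All 3 libraries with TCM were above all 3 without it in each cytokine. In IL-2 the value was 0.18 (adjusted p = 0.018) when replicate 3 of each IL-2 group were left out, and the call was lost when only the 2 groups compared were fitted (0.32, adjusted p = 0.098). Eif2ak3 rose with TCM in IL-12 (0.39 ± 0.078, adjusted p = 0.0029), at 104 ± 2.13 against 79.7 ± 4.27 CPM (SD, n = 3 each), and its change in IL-2 was 0.03 ± 0.079 (adjusted p = 0.84). Ppp1r15a rose in IL-12 (0.41 ± 0.074, adjusted p = 0.0013), at 34.3 ± 1.82 against 25.7 ± 1.43 CPM, and its change in IL-2 was 0.08 ± 0.076 (adjusted p = 0.52). Edem1 rose in IL-12 by 0.18 ± 0.054 on the log2 scale (adjusted p = 0.027), a call that ended without 1 of 8 libraries (adjusted p = 0.053 to 0.14). Ern1 was 0.23 ± 0.09 in IL-12 (adjusted p = 0.069), with its 3 TCM libraries above the 3 others, and passed the threshold when replicate 3 of IL-2 80%TCM and of IL-2 was left out (adjusted p = 0.0023). Atf6, Atf6b and Ppp1r15b lay between -0.14 and 0.18 in the 2 TCM comparisons and were not called, but without replicate 3 of each IL-2 group Atf6 was called as lower in IL-12 (-0.15, adjusted p = 0.017).

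Sdf2l1 fell to a similar size with TCM in both cytokines, by 0.55 ± 0.091 in IL-12 (adjusted p = 8e-04) and by 0.57 ± 0.093 in IL-2 (adjusted p = 0.0018) on the log2 scale. Dnajb9 fell by 0.59 ± 0.089 in IL-12 (adjusted p = 0.00045) and by 0.34 ± 0.089 in IL-2 (adjusted p = 0.022), and the call in IL-2 ended without replicate 1 or 2 of either IL-2 group (adjusted p = 0.067 to 0.11). Creld2 fell by 0.26 ± 0.069 in IL-12 (adjusted p = 0.014), ending without IL-12 replicate 1 or IL-12 80%TCM replicate 3 (adjusted p = 0.055 to 0.065). BiP itself was not called, at -0.11 ± 0.066 in IL-12 and 0.01 ± 0.066 in IL-2. Without replicate 3 of each IL-2 group it was called in IL-12, at -0.12 (adjusted p = 0.016).

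Calr fell with TCM in IL-12 by 0.5 ± 0.097 (adjusted p = 0.0021), to 480 ± 29.7 CPM in IL-12 80%TCM against 680 ± 23.3 CPM in IL-12 (SD, n = 3 each). Canx fell by 0.31 ± 0.05 (adjusted p = 0.00066), at 425 ± 24 CPM against 528 ± 10.3 CPM. In IL-2 the changes were -0.25 ± 0.097 for Calr and -0.09 ± 0.05 for Canx (adjusted p = 0.1 and 0.25). Calr was called in IL-2 with the block, at -0.24 (adjusted p = 0.0017), and with replicate 3 of IL-2 80%TCM and IL-2 left out, at -0.32 (adjusted p = 4.8e-05). The isomerases Pdia4 and Pdia6 fell in IL-12 by 0.41 ± 0.075 and 0.36 ± 0.085 (adjusted p = 0.0014 and 0.0068), with changes of -0.11 ± 0.075 and -0.15 ± 0.085 in IL-2 that were not called. Without replicate 3 of each IL-2 group those 2 changes in IL-2 were -0.24 and -0.23 (adjusted p = 0.0045 and 0.0023). Pdia3 fell in both cytokines, by 0.2 ± 0.051 in IL-12 (adjusted p = 0.0097, and 0.053 without IL-12 replicate 1) and by 0.22 ± 0.051 in IL-2 (adjusted p = 0.012, and 0.068 to 0.077 without IL-2 replicate 1 or 2). Sec61a1 likewise fell by 0.36 ± 0.061 in IL-12 (adjusted p = 9e-04) and by 0.21 ± 0.061 in IL-2 (adjusted p = 0.033), where the call ended without 1 of 9 libraries (adjusted p = 0.053 to 0.16). Ssr1, which separated the cytokines, was not called for TCM, at 0.03 ± 0.047 in IL-12 and -0.04 ± 0.048 in IL-2. Derl3 fell in IL-12 by 1.15 ± 0.359 (adjusted p = 0.03), which ended without 1 of 5 libraries (adjusted p = 0.056 to 0.098).

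**Figure D4:**
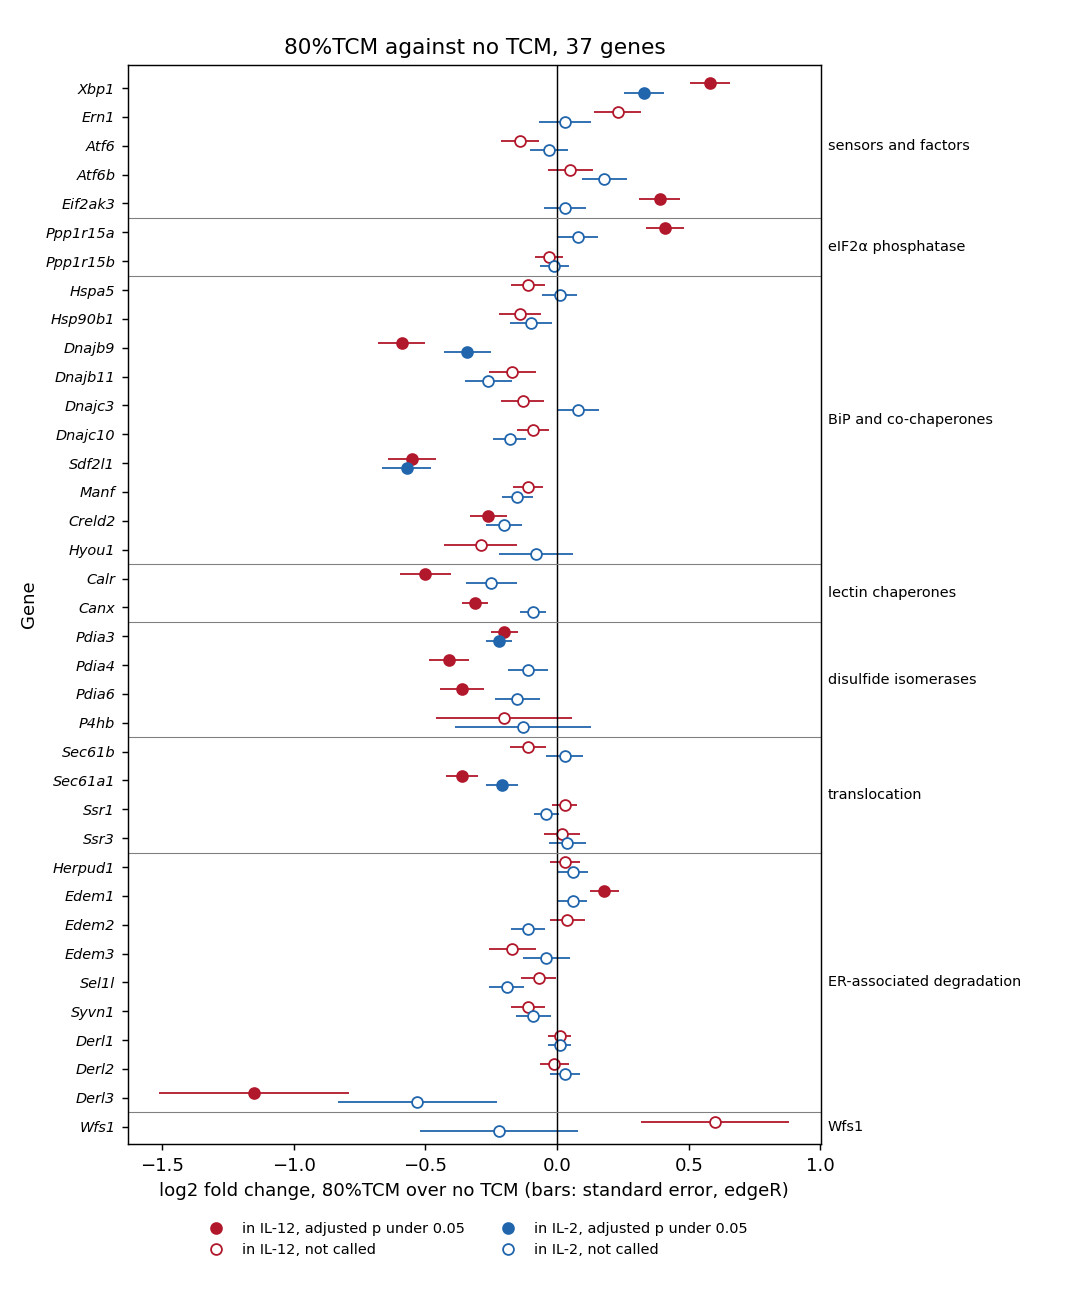
Log2 fold change of 80%TCM over no TCM for the 37 genes (rows, by role) in IL-12 (red) and in IL-2 (blue). Bars are standard errors of edgeR, and filled points passed an adjusted p of 0.05. In IL-12, Xbp1, Eif2ak3 and Ppp1r15a lie right of 0, at 0.58, 0.39 and 0.41, while Dnajb9, Sdf2l1, Calr and Pdia4 lie left of it, at -0.59, -0.55, -0.5 and -0.41.

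Of the 9 genes with an ERSE in their promoter window, 5 fell with TCM in IL-12 and 0 rose, with a median log2 fold change of -0.26, where 14.2% of all genes fell and 14.8% rose. The 5 were Calr, Canx, Pdia6, Creld2 and Derl3, the last with as few as 9 reads. Of the 22 with a window but no ERSE, 4 fell and 4 rose, with a median of 0. The 4 that fell, Dnajb9, Sdf2l1, Pdia3 and Pdia4, were chaperone or isomerase genes, like most of those 5. The 4 that rose, Xbp1, Eif2ak3, Ppp1r15a and Edem1, had other roles, so the split by ERSE is partly a split by role. For TCM in IL-2 the calls were 0 of 9 and 4 of 22, with medians of -0.1 and -0.04. For IL-12 over IL-2 without TCM, 5 of 9 and 11 of 22 were higher, against 22.1% of all genes, with medians of 0.25 and 0.17. With TCM in both groups 3 of 9 were higher and 1 lower, and 11 of 22 were higher, against 19.5% of all genes as higher, with medians of 0.03 and 0.23. Hyou1, Atf6, Sec61a1, Derl1, Manf and Ppp1r15b had no window. Of these 6, 6 were higher with IL-12 than with IL-2 without TCM, with a median of 0.35. With TCM in both groups 4 were higher, with a median of 0.26. With TCM, 1 of the 6 fell in IL-12 and 1 in IL-2.

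Whether TCM acted differently in the 2 cytokines was tested as the difference of its log2 fold changes, in IL-12 minus in IL-2. In edgeR 0 of 37 genes passed, against 1.58% of all genes, 1.19% higher and 0.39% lower, while 5 had an unadjusted p under 0.05 and DESeq2 called 0. The 5 were Eif2ak3 at 0.36 ± 0.111, Ppp1r15a at 0.33 ± 0.106, Canx at -0.22 ± 0.071, Pdia4 at -0.3 ± 0.105 and Xbp1 at 0.26 ± 0.108, with adjusted p of 0.14, 0.16, 0.16, 0.2 and 0.3. With that block 5 genes passed, against 10.5% of all genes: Eif2ak3 at 0.36 (adjusted p = 0.0019) and Ppp1r15a at 0.32 (adjusted p = 0.038) were higher, and Calr at -0.26, Canx at -0.22 and Pdia4 at -0.3 were lower (adjusted p = 0.031, 0.04 and 0.043). Without replicate 3 of IL-2 80%TCM and of IL-2, 5 passed too, against 13.2% of all genes, namely Eif2ak3 at 0.36, Ppp1r15a at 0.38 and Xbp1 at 0.39 as higher, and Dnajc3 at -0.29 and Edem3 at -0.25 as lower (adjusted p = 0.0012, 0.011, 0.00048, 0.0028 and 0.049). Eif2ak3 and Ppp1r15a passed in both of these fits. In either fit 5 genes are 13.5% of the 37, near the 10.5% and 13.2% of all genes, so they are not particular to the set. The calls depended on how replicate 3 of the IL-2 groups was treated. How many of all genes had an unadjusted p under 0.05 for this difference was not counted.

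Neighbouring pathway genes outside the 37 were read from lists chosen with earlier results of these data known. Their counts stand beside the shares of all genes: 14.8% rose and 14.2% fell with TCM in IL-12, 6.73% and 7.82% did so in IL-2, and 22.1% were higher and 23% lower with IL-12 than with IL-2 without TCM. Of 28 other genes of translocation, signal peptide cleavage and N-glycosylation, 13 fell and 0 rose with TCM in IL-12, with a median of -0.16, and 3 fell in IL-2. The lowest adjusted p in IL-12 belonged to the oligosaccharyltransferase subunits Dad1 (-0.35 ± 0.05, adjusted p = 0.00031), Ddost (-0.33 ± 0.054, adjusted p = 0.00074) and Stt3a (-0.34 ± 0.056, adjusted p = 8e-04). Ddost had 140, 136 and 128 CPM in IL-12 80%TCM against 173, 165 and 169 CPM in IL-12, with no overlap. Without TCM, 17 of the 28 were higher and 2 lower with IL-12 than with IL-2, with the lowest adjusted p for Krtcap2, another subunit (0.66 ± 0.059, adjusted p = 1.5e-06). With TCM the counts were 10 and 2.

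Of 26 other folding genes, 6 fell and 0 rose with TCM in IL-12, 0 were called in IL-2, and 8 were higher and 2 lower with IL-12 than with IL-2 without TCM. Pdia5, a low-level isomerase, fell with TCM in IL-12 to 0.698 ± 0.235 CPM against 2.28 ± 0.302 CPM (SD, n = 3 each, adjusted p = 0.00071). Of 25 other degradation genes, 1 rose and 4 fell with TCM in IL-12, near or under the shares of all genes, and 11 were higher and 1 lower with IL-12 than with IL-2 without TCM. Ube2g2, the ubiquitin-conjugating enzyme of this pathway, was 72.5 ± 1.09 CPM in IL-12 against 40.5 ± 2.5 CPM in IL-2 (SD, n = 3 each, log2 fold change 0.84 ± 0.055, adjusted p = 7.2e-08). Selenos, a selenoprotein bound to the derlins, fell with TCM in both cytokines, by 0.32 ± 0.052 in IL-12 and 0.25 ± 0.053 in IL-2 (adjusted p = 0.00071 and 0.008).

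Of 15 genes of the PERK and eIF2alpha kinase arm, 6 rose and 1 fell with TCM in IL-12, with a median of 0.2, and 1 fell and 0 rose in IL-2. Tested for a difference between the cytokines, 0 of the 15 passed. Atf4, the transcription factor whose translation the arm favours, had 196, 205 and 187 CPM in IL-12 80%TCM against 151, 153 and 145 CPM in IL-12, with no overlap (0.39 ± 0.102, adjusted p = 0.013). In IL-2 80%TCM it had 116, 124 and 167 CPM against 111, 111 and 106 CPM in IL-2, also with no overlap, and was not called (0.31 ± 0.103, adjusted p = 0.059). Cebpb also rose in IL-12, at a low level of 1.57 ± 0.484 CPM against 0.746 ± 0.0599 CPM (SD, n = 3 each, adjusted p = 0.0074). Eif2ak4 (GCN2), another eIF2alpha kinase, rose there to 25.9 ± 0.636 CPM against 20.1 ± 1.13 CPM (adjusted p = 0.014). Between cytokines without TCM the arm was mixed, with 3 higher and 6 lower in IL-12 than in IL-2 and a median of -0.33. Trib3, a pseudokinase induced by ATF4, was 4.05 ± 0.508 CPM in IL-12 against 12.9 ± 1.15 CPM in IL-2 (SD, n = 3 each, log2 fold change -1.69 ± 0.158, adjusted p = 2.2e-06).

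Of 12 regulators of IRE1 and ATF6, 1 rose and 3 fell with TCM in IL-12, and 5 were higher and 0 lower with IL-12 than with IL-2 without TCM. Rtcb, the ligase that joins the exons of Xbp1 in the splicing by IRE1, had 294, 309 and 286 CPM in IL-12 80%TCM and 240, 242 and 239 CPM in IL-12, against 172, 165 and 168 CPM in IL-2 80%TCM and 185, 179 and 171 CPM in IL-2. The groups with IL-12 were separate from each other and from those with IL-2. Rtcb rose with TCM in IL-12 (0.3 ± 0.047, adjusted p = 0.00054), and it was the gene of these lists whose TCM effect differed between the cytokines (0.39 ± 0.067, adjusted p = 0.012). Map3k5 (ASK1), a kinase downstream of IRE1, was 139 ± 5.01 CPM in IL-12 against 59.4 ± 2.44 CPM in IL-2 (SD, n = 3 each, log2 fold change 1.22 ± 0.083, adjusted p = 9.7e-08). Ddx1, the helicase partner of Rtcb, fell with TCM in IL-12 by 0.45 ± 0.054 (adjusted p = 9.1e-05).

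Among 26 genes of exit from and retrieval to the ER, 13 were higher and 1 lower with IL-12 than with IL-2 without TCM, with the lowest adjusted p for the cargo receptor Tmed10 (0.81 ± 0.054, adjusted p = 7.1e-08). With TCM 2 rose and 3 fell in IL-12, both under the shares of all genes, and 3 rose in IL-2. Of 11 genes of ER calcium, 1 rose and 2 fell with TCM in IL-12, 1 rose and 3 fell in IL-2, and 4 were higher and 5 lower with IL-12 than with IL-2 without TCM. Atp2a3, the calcium pump of blood cells, fell with TCM in both cytokines, at 315, 312 and 315 CPM in IL-12 80%TCM against 392, 400 and 409 CPM in IL-12, and at 425, 405 and 401 CPM in IL-2 80%TCM against 546, 551 and 550 CPM in IL-2. No library overlapped, and the log2 fold changes were -0.35 ± 0.042 and -0.42 ± 0.042 (adjusted p = 9.2e-05 and 7.8e-05).

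Other cell types with a large ER could add to these levels. The summed level of 7 plasma cell genes was 3.17 to 3.8 CPM in IL-12 80%TCM and 4.78 to 9.14 CPM in IL-12, against 1.44 to 2.86 CPM in IL-2 80%TCM and 2.8 to 5.07 CPM in IL-2, so it moved in the direction of the folding genes in both kinds of comparison. The largest parts of this sum in IL-12 were Ighg1, Jchain and Ighg2b, at means of 2.83, 2.61 and 1.74 CPM. In IL-2 their means were 0.963, 1.11 and 1.25 CPM. Sdc1 went the other way, at 0.244 CPM in IL-12 against 0.465 CPM in IL-2. Of 4 tested genes of this list, 2 were higher and 0 lower with IL-12 than with IL-2 without TCM. Mzb1, Tnfrsf17 and Iglc2 reached at most 0.0888, 0.0969 and 0.309 CPM. The 7-gene platelet sum was 28.7 to 35.5 CPM in IL-12 80%TCM against 62.6 to 74 CPM in IL-12, and 49 to 61.3 CPM in IL-2 80%TCM against 114 to 136 CPM in IL-2, with 5 of 6 tested genes lower with TCM in IL-12 and 6 of 6 in IL-2. Of that list 1 gene was at 0 in every library. The 9-gene B cell sum was 72.9 to 77.8 CPM in IL-12 80%TCM and 97.5 to 100 CPM in IL-12, against 308 to 741 CPM in IL-2 80%TCM and 464 to 796 CPM in IL-2, a sum that Ighm carried, at means of 62.1, 84.4, 563 and 647 CPM in these 4 groups. Cd79b of the same list was also lower with IL-12 than with IL-2, at means of 6.6, 4.92, 14.5 and 15.8 CPM in these groups. Cd79a had means of 2.02, 1.79, 3.19 and 2 CPM. Igkc went the other way, at 7.36 ± 0.398 CPM in IL-12 against 3.09 ± 0.351 CPM in IL-2 (SD, n = 3 each). Ms4a1, a surface protein of B cells, reached at most 0.319 CPM. The part of these cells in the results was not tested.

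In the main fit, 28 of the 37 genes were called in at least 1 comparison and 9 in none. That share was not counted over all genes, of which IL-12 over IL-2 without TCM alone called 45.1%. The 9 uncalled members were P4hb, the BiP co-chaperones Dnajc3 and Dnajc10, the translocon subunit Ssr3, the degradation genes Herpud1, Edem3, Sel1l and Syvn1, and Wfs1, an ER membrane protein of calcium balance. Sel1l and Syvn1 (HRD1), the adaptor and the ubiquitin ligase at the core of the degradation complex, ranged from 89.6 to 120 CPM and from 34.3 to 42.8 CPM over all 12 libraries, and the exons of Syvn1 share 91 bases with Mrpl49 on the other strand, a gene with 96.4% as many counts. Herpud1, an organizer of that complex, ranged from 43.1 to 49 CPM, and Edem3, a mannosidase-like relative of Edem1, from 40.3 to 59.9 CPM. Dnajc3 (p58IPK), an inhibitor of PERK, ranged from 150 to 194 CPM, and Dnajc10 (ERdj5), a reductase, from 89.9 to 114 CPM. Without replicate 3 of each IL-2 group, Dnajc3 was lower with IL-12 than with IL-2 under TCM (-0.29, adjusted p = 4.3e-06). Ssr3 and Edem3 were then higher with IL-12 without TCM (0.16 and 0.15, adjusted p = 0.0086 and 0.033). With the block in the IL-2 groups, Dnajc10 and Sel1l fell with TCM in IL-2 (-0.18 each, adjusted p = 0.016 and 0.01). Wfs1 was low in every library, at 0.805 to 2.42 CPM and as few as 16 reads, and its log2 fold changes had standard errors of 0.282 to 0.41, too wide to show a change of the size seen in most of the others.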

How the data were processed

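RNA libraries of mouse CD8+ T cells, 4 groups of 3, were made with a modified NEBNext directional total RNA kit, per the labels' protocols. The authors deposited raw counts per Ensembl gene and, in a second table, a signal that was each count divided by 1 constant per library (equal within 1e-09 over 32285 genes), which limma tested as an alternative on log2(value + 1), with 0.1 and 5 as other pseudocounts. STAR 2.7.7a and edgeR, and a human build, GRCh38, are named per the submitters' processing notes, although the gene identifiers are mouse. Symbols came from a given table of names (55141 of 55487 identifiers matched).

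Counts were tested with edgeR 4.0.16 in R 4.3.3: TMM scaling, filterByExpr (minimum count 10, minimum total 15), 1 quasi-likelihood fit over 12 libraries and 5 contrasts, each adjusted by Benjamini-Hochberg over 15897 genes at 0.05. CPM used library sizes scaled by TMM. The common biological coefficient of variation was 0.104. DESeq2 1.42.0, limma 3.58.1, other scalings and filters, a replicate block and leaving out each library were alternatives. Levels per kb used merged exons of GRCm38. Motifs were searched in RefSeq promoter windows. The test was checked on simulated data.

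The genes and lists were chosen with earlier results of these data known. Values per library are given for members called in at least 1 contrast with a highest group mean of at least 5 CPM, and from each pathway list at most 3 called genes per contrast are named. Deviations of same-numbered libraries from their group means correlated between IL-2 80%TCM and IL-2 (r = 0.28, 0.25 and 0.57 for replicates 1, 2 and 3), which is over 0.1 for every pair, so a block was fitted. Unlike numbers 1 and 2 correlated as much (0.27 and 0.3), so the numbers set only replicate 3 apart. Between the other groups compared the same-number r was -0.04 to 0.07.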

Additional observations from a re-analysis of the deposited data

How the results depend on the processing

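Percentages in parentheses are the share of all genes called by the same run. For TCM in IL-2 (5 genes called), fitting only the compared groups called 0 (3.81%) and the replicate block over all libraries 8 (17.1%). A replicate block in the IL-2 groups alone called 14 (27.9%). Leaving out replicate 3 of IL-2 80%TCM and of IL-2 also called 14 (24.7%). A minimum absolute log2 fold change of 0.5 called 1 (6.24%). For TCM in IL-12 (14 called), fitting only the compared groups called 26 (48.9%), leaving out both replicates 3 called 24 (46%), and the fold minimum 5 (12.1%). The fold minimum called 8 for IL-12 over IL-2 with TCM (18 higher and 1 lower called) and 7 without it (22 called). For the difference of the TCM effect (0 called), the replicate block in the IL-2 groups alone called 5 (10.5%) and leaving out both replicates 3 called 5 (13.2%). Leaving out 1 library at a time called 2 to 9 genes for TCM in IL-2 (7.95% to 18.1%) and 11 to 18 for TCM in IL-12 (18% to 35.2%). It called 16 to 21 for IL-12 over IL-2 with TCM (30.1% to 41.5%) and 17 to 24 without it (34.3% to 50.3%). For the difference it called 0 to 2 (0.642% to 7.19%), where the 2 came without IL-2 80%TCM replicate 3 and 1 without IL-2 replicate 3. P4hb reversed without both replicates 3, to 0.34 for IL-12 over IL-2 with TCM and 0.29 without it. Causes were not tested. Under all alternatives run other than the fold minimum, 0 of 5, 10 of 14, 15 of 19 and 15 of 22 calls remained for TCM in IL-2, TCM in IL-12, and IL-12 over IL-2 with and without TCM. Upper-quartile scaling gave 14 higher and 2 lower genes for IL-12 over IL-2 with TCM (39.6%), and 17 and 2 without it (44.8%), as it moved the median of all genes by -0.07 and -0.08. A fit of only the compared groups cannot give the difference, and that block was not run for the cytokine comparisons. Derl3 and Wfs1 were limited by depth.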
